A study of Mus musculus with 24 samples.

Results

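The genes of fibrinogen, hemopexin and other acute phase proteins were followed in differentiated MMH-D3 cells, an immortalized line of mouse hepatocytes, over 24 Affymetrix arrays. The members were the genes Fga, Fgb, Fgg, Hpx, Hp, Orm1, Lcn2, Cp, Saa3 and Stat3. Every probe set that the platform annotation gives one of these symbols alone was taken, which made 20 probe sets for 10 genes among the 18194 genes named on the array. The choice used no measured value. Cells were grown to confluence, held for 14 days in growth medium with 2% DMSO and then given a serum shock, a serum pulse that aligns the clocks of cultured cells. The single group was therefore 1 cell line under 1 treatment, sampled every 2 h from 12 to 58 h after the shock, with 1 array per time point. No cells without the shock were analysed here, and the labels name no added cytokine. The line is known to descend from the liver of mice that carried a truncated Met receptor transgene, and the labels do not state whether samples were separate cultures.

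Acute phase proteins are plasma proteins whose output by the liver changes in inflammation. Interleukin 6 binds its receptor with the signal-transducing chain gp130, JAK kinases then phosphorylate STAT3, and STAT3 acts with C/EBP factors at acute phase promoters, many of which also depend on the liver factor HNF1. Fga, Fgb and Fgg encode the alpha, beta and gamma chains of fibrinogen, which assemble into a hexamer that thrombin turns into fibrin. Hpx encodes hemopexin, which binds free haem, and Hp encodes haptoglobin, which binds free haemoglobin. Cp encodes ceruloplasmin, the copper ferroxidase of plasma, Lcn2 a lipocalin that binds iron-loaded siderophores, Orm1 an orosomucoid and Saa3 a serum amyloid A protein.

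Values are log2 expression values, and a change of 1 is a 2-fold change. The table's lowest value, 2.17, accounted for 41.1% of its entries and is only an upper limit for a transcript that shows it. Of the 20 member probe sets, 16 from 9 genes reached log2 5 on at least 6 arrays and entered the tests. The other 4 lay below it: the 1 probe set of Orm1 (mean 3.19, 0 arrays at 5 or above), Cp 1441326_at (mean 3.73, 1 array at 5 or above) and Stat3 1459961_a_at and 1424272_at (means 2.41 and 2.17, 0 arrays each). Fgg was kept but dim, with 13 of 24 arrays at 5 or above. The array at 40 h had the smallest share of entries at that limit (39.3%) and the lowest median of kept probe sets (8.96), and the 46 h array the largest share (42.1%) and the highest median (9.14). An array's median correlation with the others was lowest for 12 h (0.972) and highest for 38 h (0.990). Of the hepatocyte markers 5 of 7 on the array were measured, with Alb at a mean of 15.97 over all arrays, while Cps1 and Tat lay at 2.17 on every array. Of the other cell types, 0 of 6 fibroblast and stellate markers and 0 of 4 endothelial markers passed the filter. All 4 bile duct markers passed, and Krt19 had a mean of 15.44. Among macrophage markers Cd14, Cd68 and Csf1r passed, and the defining Ptprc and Adgre1 averaged 2.17 and 2.20.

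The promoters of the fibrinogen genes and of Hpx are shown because these 4 genes had the largest linear falls among the members. Each line gives 250 bases before the RefSeq start of the gene on the GRCm38.p6 build, read 5' to 3' on the gene's strand. Capitals mark matches, on either strand, to GTTAAT (the core letters of an HNF1 site), TTGCNNAA (C/EBP), TTCNNNGAA (STAT) or CTGGGAA (the core of the IL-6 response element). In the RefSeq annotation Fgg, Fga and Fgb lie next to each other on chromosome 3. The windows are chr3:83025903-83026152 on the + strand for Fga, chr3:83049864-83050113 on the - strand for Fgb, chr3:83007474-83007723 on the + strand for Fgg and chr7:105600117-105600366 on the - strand for Hpx.
Fga: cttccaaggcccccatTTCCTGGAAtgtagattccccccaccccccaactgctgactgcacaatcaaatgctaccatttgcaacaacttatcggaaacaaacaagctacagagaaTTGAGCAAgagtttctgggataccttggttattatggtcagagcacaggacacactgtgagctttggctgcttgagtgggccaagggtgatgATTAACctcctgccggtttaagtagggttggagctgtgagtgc
Fgb: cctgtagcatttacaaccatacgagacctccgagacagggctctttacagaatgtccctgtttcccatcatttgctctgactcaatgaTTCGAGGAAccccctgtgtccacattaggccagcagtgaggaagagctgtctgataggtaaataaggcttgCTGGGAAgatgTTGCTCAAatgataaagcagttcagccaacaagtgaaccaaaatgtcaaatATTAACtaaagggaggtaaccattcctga
Fgg: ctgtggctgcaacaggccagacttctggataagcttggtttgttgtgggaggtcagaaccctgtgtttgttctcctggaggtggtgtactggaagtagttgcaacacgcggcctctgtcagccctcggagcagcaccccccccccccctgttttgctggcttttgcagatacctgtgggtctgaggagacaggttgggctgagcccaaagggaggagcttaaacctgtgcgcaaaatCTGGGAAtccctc
Hpx: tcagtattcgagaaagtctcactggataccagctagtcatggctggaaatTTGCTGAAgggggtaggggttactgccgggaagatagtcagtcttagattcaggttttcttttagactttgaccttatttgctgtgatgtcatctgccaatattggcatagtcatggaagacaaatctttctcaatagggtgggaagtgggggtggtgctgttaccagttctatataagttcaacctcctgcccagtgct

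Fgb held all 4 motifs, Fga 3 of them, and Fgg and Hpx 1 each. The Fgb matches began 162 (STAT), 91 (CTGGGAA), 80 (C/EBP) and 29 (GTTAAT) bases before the start, and those of Fga 234 (STAT), 135 (C/EBP) and 43 (GTTAAT) bases before it. In Fgg the 1 match was CTGGGAA, 13 bases before the start, and in Hpx TTGCNNAA, 200 bases before it. RefSeq windows were found for 8 of the 10 member genes, 9 windows in all, with 2 for Cp. The C/EBP letters were in 6 of the 9 windows against 9.56% of all 32851 windows of this length, GTTAAT in 3 against 6.43%, the STAT letters in 2 against 7.02% and CTGGGAA in 2 against 9.10%. The Stat3 window held no match. These matches describe letters in the windows and do not show that a factor binds there.

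All 3 fibrinogen chains fell over the time course, and each was highest at 12 h and lowest at 48 h. Fga ranged from 8.06 at 48 h to 10.16 at 12 h, with a median of 8.92. Its means over consecutive blocks of 8 h were 9.56 ± 0.42, 9.15 ± 0.10, 9.04 ± 0.09, 8.64 ± 0.31, 8.37 ± 0.24 and 8.54 ± 0.13 (SD, n = 4 arrays at neighbouring times). The 4 arrays of 52 to 58 h all lay below the 4 arrays of 12 to 18 h, and the mean was 2.02-fold lower. Fgb ranged from 9.25 at 48 h to 11.45 at 12 h (median 10.14), and its mean fell from 10.86 ± 0.42 to 9.71 ± 0.11 between the first and last 8 h (2.21-fold). Fgg, the dimmest chain, ranged from 3.55 at 48 h to 7.51 at 12 h (median 5.12), with means of 6.09 ± 0.95 and 4.73 ± 0.12 in the first and last 8 h. Neither chain's last 4 arrays overlapped its first 4. Of the 24 Fgg values 11 lay below 5, where the array separates levels poorly, so the size of its fall is less certain.

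**Figure D1:**
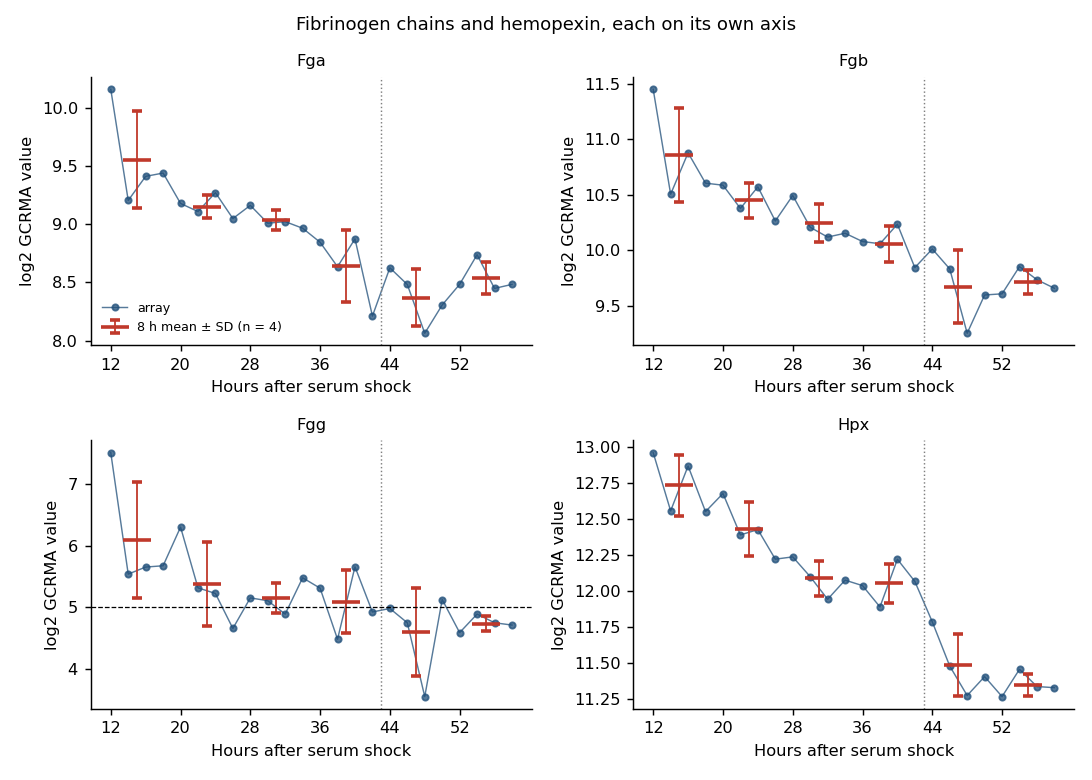
Log2 GCRMA values of Fga, Fgb, Fgg and Hpx against hours after serum shock, each on its own axis; points are single arrays, bars are means ± SD of 4 arrays over 8 h, the dotted line lies between the 42 and 44 h arrays and the dashed line in the Fgg panel marks log2 5. All 4 genes are highest at 12 h, and their 4 last arrays lie below their 4 first.

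Hemopexin fell over the same hours. Hpx ranged from 11.27 at 52 h to 12.96 at 12 h (median 12.07), with block means of 12.73 ± 0.21, 12.43 ± 0.19, 12.09 ± 0.12, 12.05 ± 0.14, 11.49 ± 0.22 and 11.35 ± 0.08. The last 4 arrays all lay below the first 4, with a mean 2.61-fold lower. In bulk RNA, fewer cells making a transcript and less transcript per cell cannot be told apart.

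Across the members the linear term of a limma fit, which also held a 24 h cosine and sine, was negative and past the threshold for 13 of 16 probe sets and positive past it for 0. Of all 18526 probe sets tested, 16.7% were called lower and 24.9% higher. Counting 1 probe set per gene, 7 of 9 member genes fell, with a median of −0.75 against 0.07 over all 9825 genes. At an unadjusted p under 0.05, 15 member probe sets had a negative and 1 (Lcn2) a positive linear term, against 20% and 29.6% of all probe sets. The error of each change is the scatter of the 24 arrays about the fitted curve, which may be technical in part. Over the 46 h, Hpx fell by 1.50 ± 0.10 (SE; 2.82-fold; adjusted p = 1.57e-10), Fga by 1.41 ± 0.15 (2.66-fold; adjusted p = 2.21e-07) and Fgb by 1.37 ± 0.15 (2.59-fold; adjusted p = 3.03e-07). Fgg fell by 1.46 ± 0.38 (2.74-fold; adjusted p = 0.00356). These 4 were called in each of the other settings and array omissions in which they were tested, as listed in the closing section. After quantile normalization or centring of the arrays on their medians, the split over all probe sets was 3712 higher and 4059 lower, or 3653 higher and 3952 lower, against 4604 higher and 3087 lower as deposited. Centring moved the median of all probe sets from 0.06 to −0.0067, and 15 of 16 member probe sets then fell.

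The 12 h array stood apart for the fibrinogen genes. The change from 12 to 14 h was −0.96 for Fga (1.94-fold lower), −0.94 for Fgb (1.92-fold lower) and −1.97 for Fgg (3.93-fold lower), against −0.40 for Hpx and −0.28 for Hp. A drop at least as large as that of Fgb was seen in 38 of the 18526 kept probe sets (0.205%), and a rise of at least that size in 50 (0.270%). The 12 h array also had the lowest correlation with the others, and its part in the drop was not tested. Without it, Fga fell by 1.26 ± 0.14, Fgb by 1.21 ± 0.14 and Fgg by 1.03 ± 0.33 over 46 h (adjusted p = 5.72e-07, 6.08e-07 and 0.0149), and the change of Hpx was −1.46 ± 0.11. The 3 chains and Hpx were thus still called as lower when the highest array was left out.

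The fibrinogen chains also moved together from one array to the next, as did several other pairs of members. Over the 24 arrays the Pearson correlation was 0.965 between Fga and Fgb, 0.821 between Fga and Fgg and 0.854 between Fgb and Fgg. Over the 23 steps between neighbouring arrays it was 0.874, 0.691 and 0.793 for the same pairs. Those steps include the large drop of the chains at the start of the time course, and correlations without it are not given here. The points share arrays and the drift over time, so these values only describe how alike the profiles were. The difference between the log2 values of Fgb and Fga within an array varied by 0.13 (SD, 24 arrays) about its mean, from its lowest at 32 h to its highest at 42 h. That spread is smaller than the SD of 0.47 and 0.48 of Fga and Fgb themselves. Hpx correlated with Fgb at 0.939 over the arrays and at 0.732 over the steps. Fgb and Cp correlated at 0.641 over the arrays and at 0.14 over the steps. Other pairs over the steps gave 0.745 (Hpx and Hp), 0.735 (Fgg and Hpx), 0.725 (Fga and Saa3) and 0.704 (Fgb and Hp). These lay above Fga with Fgg, so co-movement of that degree was not particular to the chains. Pairs of a chain with Lcn2 or Stat3 ranged from −0.095 (Fgg and Stat3) to 0.044 (Fgg and Lcn2).

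In their block means, haptoglobin and ceruloplasmin were lower from 44 h on than before. No difference between their blocks up to 42 h was called. The last of those contrasts called 0 of all probe sets, so it cannot show that levels held steady. Hp ranged from 8.78 at 58 h to 10.17 at 40 h (median 9.83). Its block means were 9.62 ± 0.32, 9.96 ± 0.09, 9.99 ± 0.06, 9.92 ± 0.19, 9.31 ± 0.29 and 9.06 ± 0.22. All 4 arrays of 44 to 50 h lay below all 4 of 36 to 42 h, whereas the last 4 arrays overlapped the first 4, since the 14 h array was at 9.22. The brightest Cp probe set, 1448734_at, ranged from 14.90 at 46 h to 15.53 at 30 h (median 15.29), with block means of 15.33 ± 0.13, 15.45 ± 0.02, 15.45 ± 0.07, 15.24 ± 0.19, 14.96 ± 0.08 and 15.06 ± 0.13. In it and in 1448735_at the 42 h array was already low, at 14.98 and 11.37. The 7 kept Cp probe sets gave 21 pairs with correlations from 0.668 to 0.989 over the arrays, and each was lower in all 4 of the last arrays than in the first 4, by 1.21 to 1.59-fold in the mean. The dim probe set 1441326_at ranged from 2.49 to 5.81, was highest at 12 h and was not tested.

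**Figure D2:**
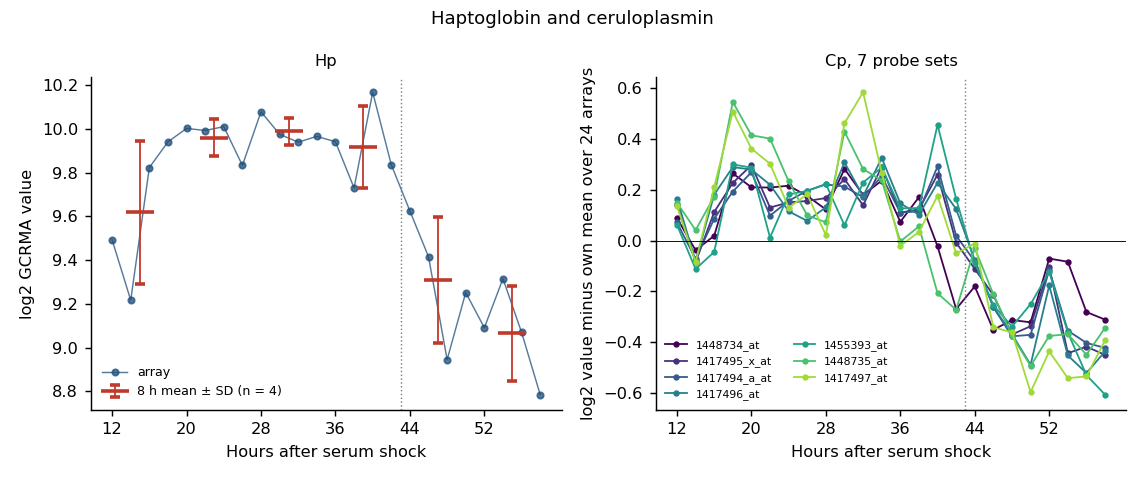
Against hours after serum shock, the left panel plots log2 GCRMA values of Hp (points are single arrays, bars are means ± SD of 4 arrays over 8 h) and the right panel the 7 kept Cp probe sets, each as its log2 value minus its own mean over the 24 arrays; the dotted line lies between the 42 and 44 h arrays. Hp holds between 9.73 and 10.17 from 18 to 42 h and lies between 8.78 and 9.62 from 44 h on.

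Differences between consecutive blocks of 8 h were tested with limma to see when the members moved. Between 36-42 h and 44-50 h, 9 of 16 member probe sets were lower and 0 higher, against 11.4% lower and 20.3% higher among all 18526. Most of the 9 read the same gene, Cp. Counting 1 probe set per gene, 4 of 9 member genes were lower and 0 higher, against 12.7% and 20.5% of all genes. Hp was lower by 0.61 ± 0.14 (1.53-fold; adjusted p = 0.0025) and Hpx by 0.57 ± 0.11 (1.48-fold; adjusted p = 0.000457). Of the 7 Cp probe sets 6 were lower, with differences from −0.28 to −0.45, and 1448735_at gave −0.17 (adjusted p = 0.239). Stat3 1426587_a_at was lower by 0.24 ± 0.09 (adjusted p = 0.0415), a call that was lost without the array at 38, 40, 42, 46 or 50 h. The fibrinogen chains were not called in this contrast: Fga gave −0.27 ± 0.16, Fgb −0.38 ± 0.16 and Fgg −0.49 ± 0.39 (adjusted p = 0.206, 0.0788 and 0.354). Without the 48 h array, the lowest for all 3 chains, these differences were −0.17, −0.24 and −0.14, and without the 42 h array that of Fga was −0.42. Fgb was called without the 12 h array (adjusted p = 0.0309), without the 44 h array (adjusted p = 0.0273) and after quantile normalization or centring (adjusted p = 0.0493 and 0.043). After those 2 scalings the split over all probe sets was 2953 higher and 3059 lower, or 2795 and 3188, against 3755 and 2121 as deposited.

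No member was called in the other 4 contrasts. From 12-18 h to 20-26 h, 6.15% of all probe sets were called lower and 6.14% higher. There 4 of 16 members had an unadjusted p under 0.05, a share close to the 26.8% of all probe sets that did. These were Fga, Fgb and Hpx, at −0.40, −0.41 and −0.31, and Hp at 0.34. Without the 12 h array the differences of Fga, Fgb and Hpx were −0.20, −0.21 and −0.23, that of Fgg moved from −0.72 to −0.25, and without the 14 h array that of Hp was 0.21. Hpx was called there without the 18, 20 or 44 h array, and Hp without the 18 h array (0.45, adjusted p = 0.0384). From 20-26 h to 28-34 h 0.0486% of all probe sets were called in either direction, and 1 member had an unadjusted p under 0.05 against 10.1% of all. From 28-34 h to 36-42 h 0% were called, and 4 members had an unadjusted p under 0.05 against 12.1% of all. All 4 were lower, against 5.14% of all: Fga at −0.40 and Cp 1448735_at, 1417497_at and 1448734_at at −0.36, −0.30 and −0.22. For 1448735_at this was a larger difference than the −0.17 from 36-42 h to 44-50 h. From 44-50 h to 52-58 h 0.027% were called lower and 0.0054% higher, and 0 members had an unadjusted p under 0.05 against 9.86% of all.

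A straight line and a step can stand in for each other, so a fit with both a linear term and a step from 44 h on was added once the profiles had been inspected. In it 8 of 16 member probe sets had a negative step past the threshold and 0 a positive one, against 15.5% and 26.2% of all probe sets. Of these 8, 6 were probe sets of Cp. The step was placed with these same profiles in view, so its p-values repeat that choice and are no separate support. For Hp the step was −1.02 ± 0.16 (adjusted p = 2.90e-05) and the linear change beside it 0.52 ± 0.25 (adjusted p = 0.123). Among the Cp probe sets 6 had a called step, from −0.31 to −0.65, and no called linear term beside it. The other, 1448735_at, had a step of −0.21 (adjusted p = 0.207) and a called linear change of −0.60 ± 0.21 (adjusted p = 0.0322). For Hpx the order was the reverse of that of Hp, with a step of −0.16 ± 0.11 (adjusted p = 0.217) beside a linear fall of 1.29 ± 0.16 (adjusted p = 3.34e-06). Fga, Fgb and Fgg had uncalled steps of 0.29, 0.18 and 0.53 beside linear changes of −1.77, −1.59 and −2.12 (adjusted p = 8.31e-06, 4.06e-05 and 0.0119). Saa3 had a step of −0.03 and fell by 0.64 ± 0.15 in the linear term (adjusted p = 0.00207).

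**Figure D3:**
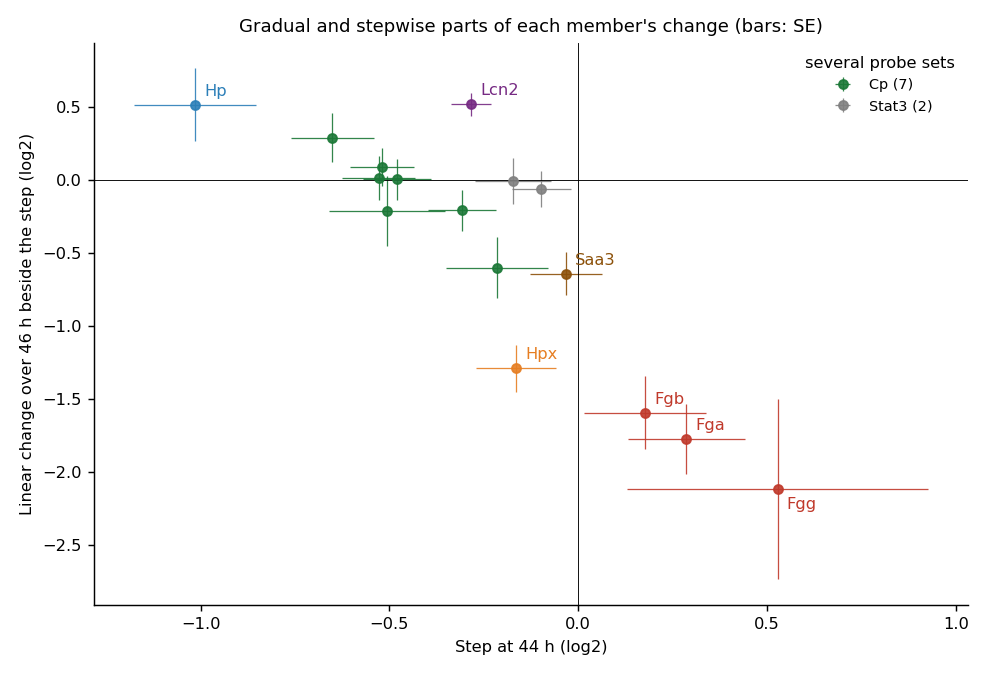
Linear change over 46 h plotted against the step from 44 h on, both from the same limma fit, in log2 units with standard errors, 1 point per kept member probe set. Fga, Fgb, Hpx and Saa3 lie at a negative linear change with a step between −0.16 and 0.29, and Hp and 6 Cp probe sets at a step between −1.02 and −0.31.

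Before 44 h Fga, Fgb and Hpx had steeper falls than Hp and Cp 1448734_at within the same arrays. Over the 16 arrays from 12 to 42 h, the least-squares change over 30 h was −1.10 for Fga, −1.03 for Fgb and −0.89 for Hpx, against −0.11 for Cp 1448734_at and 0.36 for Hp. The difference from Hp was −1.46 for Fga, −1.38 for Fgb and −1.25 for Hpx, and each gave an adjusted p of 1.50e-05 in a two-sided permutation test of the times (100000 shuffles, 6 pairs). The difference from Cp was −0.99 for Fga, −0.92 for Fgb and −0.78 for Hpx (permutation test, adjusted p = 1.50e-05, 0.000384 and 0.00288). The smallest unadjusted p these shuffles can give is 1.00e-05. Without the 12 h array the differences were −1.15, −1.07 and −1.08 from Hp and −0.74, −0.65 and −0.67 from Cp, and the highest adjusted p of the 6 was 0.0134 (permutation test). The pairs were chosen after these same profiles were seen, so the p-values repeat that choice and are no separate support. Shuffling also treats neighbouring arrays as independent. Other Cp probe sets were not compared. In the limma fit without 44 to 58 h, on the scale of 46 h, Cp probe sets ranged from −0.58 (1448735_at) to 0.37 (1455393_at).

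Saa3 fell across the time course, whereas Lcn2 rose and then stepped down in a fit that allows for a step. Saa3 ranged from 14.44 at 58 h to 15.37 at 18 h (median 14.93), and its block means descended from 15.20 ± 0.16 through 15.11, 15.01, 14.85 and 14.74 to 14.63 ± 0.15. The last 4 arrays all lay below the first 4, and the linear term gave a fall of 0.68 ± 0.09 (1.60-fold; adjusted p = 2.39e-06). Lcn2 ranged only from 15.63 at 14 h to 16.06 at 42 h (median 15.80). Its block means were 15.67 ± 0.07, 15.76 ± 0.05, 15.84 ± 0.05, 15.92 ± 0.16, 15.80 ± 0.03 and 15.78 ± 0.07, and its last 4 arrays overlapped its first 4. Over all 24 arrays its linear change of 0.17 ± 0.07 was not called (adjusted p = 0.0686). With the step term beside it, Lcn2 rose by 0.52 ± 0.08 (adjusted p = 4.08e-05) and stepped down by 0.28 ± 0.05 at 44 h (adjusted p = 0.000159). The arrays at 40 and 42 h, at 16.02 and 16.06, were the 2 highest. In the contrast of 44-50 h with 36-42 h Lcn2 gave −0.12 ± 0.06 and was not called (limma, adjusted p = 0.12). Without the 42 h array that difference was −0.068.

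**Figure D4:**
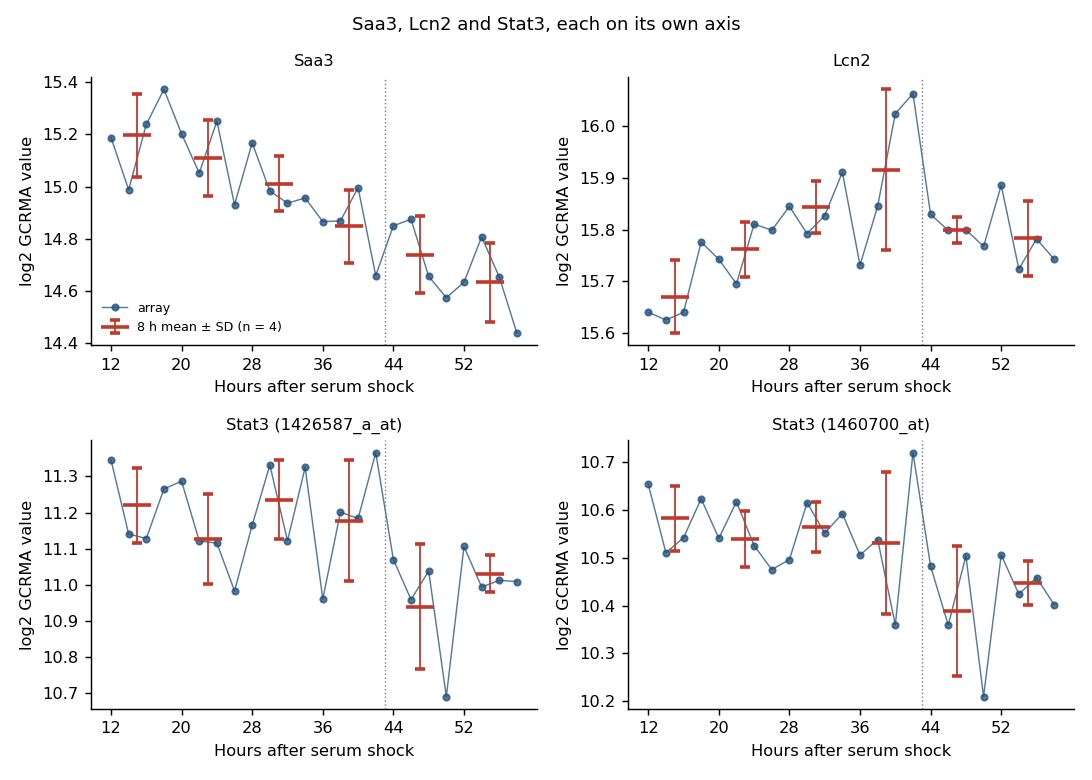
Log2 GCRMA values of Saa3, Lcn2 and the 2 measured Stat3 probe sets against hours after serum shock, each on its own axis; points are single arrays, bars are means ± SD of 4 arrays over 8 h, and the dotted line lies between the 42 and 44 h arrays. Saa3 declines from 15.37 at 18 h to 14.44 at 58 h, Lcn2 peaks at 16.06 at 42 h, and Stat3 spans 0.67 and 0.51 in log2.

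Stat3, the transcription factor of the pathway, varied little. Probe set 1426587_a_at ranged from 10.69 at 50 h to 11.37 at 42 h (median 11.12) and 1460700_at from 10.21 at 50 h to 10.72 at 42 h (median 10.51). Both were lower in all 4 of the last arrays than in the first 4, by 1.14-fold and 1.10-fold in the mean. The linear changes were −0.22 ± 0.10 and −0.18 ± 0.08 and were not called (adjusted p = 0.0709 and 0.0531). After quantile normalization both were called (−0.26 and −0.24, adjusted p = 0.0436 and 0.012), as after centring (−0.29 and −0.25, adjusted p = 0.03 and 0.00897). The array steps of Stat3 correlated with those of Lcn2 at 0.644 over 23 steps, and their levels at 0.243 over the 24 arrays. Orm1 lay between 2.37 at 28 h and 4.40 at 52 h, below log2 5 on every array, with block means of 3.01 in the first 8 h and 3.81 in the last.

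In all, 14 of the 16 kept member probe sets were lower in each array of 52 to 58 h than in each array of 12 to 18 h, against 18.1% of all 18526, and 0 were higher in each, against 24.2%. The exceptions were Hp and Lcn2. All kept probe sets of Cp and of Stat3 are among the 14, so these genes are counted more than once.

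No member was called as cycling with a 24 h period, where 2.59% of all probe sets were called. At an unadjusted p under 0.05, 2 of 16 member probe sets (Hpx and Fga) passed limma's F test, against 19.9% of all probe sets. Hpx had an amplitude of 0.13 ± 0.04, a peak-to-trough ratio of 1.20 (adjusted p = 0.162), and Fga one of 0.18 ± 0.06, a ratio of 1.29 (adjusted p = 0.179). For Lcn2, Saa3, Hp and both Stat3 probe sets the amplitude was 0.067 or less, with adjusted p from 0.533 to 0.911. Without the arrays at 12 to 18 h, 3 probe sets were called: Hpx (0.16, adjusted p = 0.0474), Cp 1448734_at (0.13, adjusted p = 0.00931) and Cp 1417496_at (0.16, adjusted p = 0.0228). Both Cp probe sets read the same gene. The share of all probe sets called in that setting is not given here, so this count cannot be set against it.

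Other acute phase genes fell as well. A list of 33 further genes was taken as rising in the acute phase response, which was not checked for each gene in the mouse. Of these 25 were on the array and 15 passed the filter. Of the 15, 8 fell and 0 rose over the 46 h, with a median of −0.60 against 0.07 over all genes (16.4% of all genes fell and 26.3% rose). Serpina1b, an antitrypsin gene, fell by 1.45 ± 0.16 (adjusted p = 3.45e-07), the metallothionein gene Mt1 by 1.16 ± 0.19 (adjusted p = 3.36e-05) and the C-reactive protein gene Crp by 0.95 ± 0.12 (adjusted p = 2.23e-06). Serpina1b has close copies in the mouse, and its probe sets may read them too. Between 36-42 h and 44-50 h, 6 of the 15 were lower and 0 higher (12.7% and 20.5% of all genes), with Mt1 at −0.91 ± 0.13 and Crp at −0.63 ± 0.11 (adjusted p = 1.47e-05 and 0.000182). With the last 8 arrays left out, a choice made with the profiles in view, 4 of the 15 fell and 1 rose (16.1% and 14.3% of all probe sets). There Serpina1b kept its fall (−1.13, adjusted p = 0.00652), and Mt1 and Crp were not called (−0.33 and −0.46, adjusted p = 0.204 and 0.0521). Here and below, linear changes without 44 to 58 h are slopes over 30 h scaled to 46 h, so they run past the hours fitted. The 10 genes below the filter included Orm2, Orm3, Itih3, Serpina3n and Hamp, with means from 2.17 to 2.19. Crp was the 1 gene of the list called as rhythmic (amplitude 0.22, adjusted p = 0.0367).

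Genes known to fall in the acute phase response were called in both directions. Of 6 measured, 3 fell and 1 rose (16.4% and 26.3% of all genes), with a median of −0.67. Apoa1, the main HDL apolipoprotein, fell by 2.54 ± 0.42 and the transthyretin gene Ttr by 1.34 ± 0.21 (adjusted p = 5.34e-05 and 2.27e-05), and the retinol carrier gene Rbp4 rose by 0.54 ± 0.11 (adjusted p = 0.000594). From 36-42 h to 44-50 h Ttr was lower by 0.98 ± 0.14 and the fetuin gene Fetub higher by 0.83 ± 0.17 (adjusted p = 1.44e-05 and 0.000793). In that contrast 3 of 6 genes were higher and 2 lower, against 20.5% and 12.7% of all genes. Without 44 to 58 h the linear changes of Apoa1, Ttr and Rbp4 were −1.07, −0.23 and 0.03 (adjusted p = 0.111, 0.408 and 0.897).

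Of the genes of interleukin 6, STAT3 and related cytokine signals, 19 of 23 on the array were measured, 4 rose and 1 fell, and the median was 0.04. That is 21.1% and 5.26% of the 19, against 26.3% and 16.4% of all genes. The counts were 3 and 4 after quantile normalization (20% and 21.9% of all probe sets) and 3 and 3 after centring (19.7% and 21.3%). Osmr, the oncostatin M receptor gene, rose by 0.52 ± 0.09, Il1r1, the interleukin 1 receptor gene, by 0.67 ± 0.15 and Cebpb, a C/EBP factor gene, by 0.55 ± 0.14 (adjusted p = 9.89e-05, 0.00117 and 0.00242). In the contrast of 44-50 h with 36-42 h, 2 were higher and 5 lower (20.5% and 12.7% of all genes). Osmr was at 0.41 ± 0.09 and the liver factor gene Hnf4a at −0.39 ± 0.08 (adjusted p = 0.00131 and 0.000854). The Hnf4a probe set with a mean of 11.90 gave only −0.06 there (adjusted p = 0.779). The remaining Hnf4a probe sets gave −0.26 and −0.38 (adjusted p = 0.0468 and 0.0389). Il6 and the receptor gene Il6ra were below the filter, with means of 2.34 and 3.51, whereas Il6st, the gene of gp130, was measured and its change of 0.12 ± 0.08 was not called (adjusted p = 0.255). Socs3, a STAT3 target and inhibitor, gave −0.04 ± 0.15 in its brightest probe set (adjusted p = 0.856). The Socs3 probe set with a mean of 9.59 was called lower (−0.34, adjusted p = 0.0288). The Socs3 probe set with a mean of 8.74 gave 0.20 and was not called (adjusted p = 0.253). Without 44 to 58 h the rises of Osmr and Cebpb were not called (0.30 and −0.09, adjusted p = 0.182 and 0.668), and Il1r1 was called higher (1.44 on the scale of 46 h, adjusted p = 8.37e-06).

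Of the coagulation and fibrinolysis genes, the partners of fibrinogen in clotting, only 8 of 23 on the array passed the filter, and the prothrombin gene F2 and the plasminogen gene Plg averaged 2.17. Among the 8, 2 rose and 2 fell (26.3% and 16.4% of all genes), with a median of 0.33. The heparin cofactor gene Serpind1 fell by 1.04 ± 0.20 and the tissue plasminogen activator gene Plat by 0.28 ± 0.08 (adjusted p = 0.000267 and 0.00539), while the tissue factor gene F3 rose by 0.62 ± 0.16 (adjusted p = 0.00285). From 36-42 h to 44-50 h 2 were higher and 0 lower, against 20.5% and 12.7% of all genes. The 2 were the kininogen gene Kng1, by 0.84 ± 0.17, and F3, by 0.32 ± 0.11 (adjusted p = 0.000673 and 0.0393). After centring F3 was not called there (0.25, adjusted p = 0.0891), and without 44 to 58 h its linear rise was not called (0.20, adjusted p = 0.344).

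Among genes that handle the haem, haemoglobin and copper bound by hemopexin, haptoglobin and ceruloplasmin, 11 of 13 were measured. Of these 2 rose and 1 fell (26.3% and 16.4% of all genes), and the median was −0.0080. The haem oxygenase gene Hmox1 rose by 1.30 ± 0.17 and the biliverdin reductase gene Blvrb by 0.42 ± 0.10, and Atp7b, which loads copper into ceruloplasmin, fell by 0.70 ± 0.18 (adjusted p = 2.18e-06, 0.00266 and 0.00281). In the contrast of 44-50 h with 36-42 h 1 was higher and 4 lower (20.5% and 12.7% of all genes). Alas1, the first enzyme of haem synthesis, was at −0.49 ± 0.08 and the biliverdin reductase gene Blvra at −0.43 ± 0.08 (adjusted p = 0.000102 and 0.000458). Lrp1, the gene of the hemopexin receptor, gave 0.49 ± 0.37 (adjusted p = 0.298), and Cd163, the gene of the haptoglobin receptor of macrophages, lay at 2.17 on every array. Without 44 to 58 h 5 rose and 0 fell (14.3% and 16.1% of all probe sets), and Atp7b gave 0.11 (adjusted p = 0.71). Hbp1, a transcription factor gene not known for haem, was counted in this list because of its symbol.

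**Figure D5:**
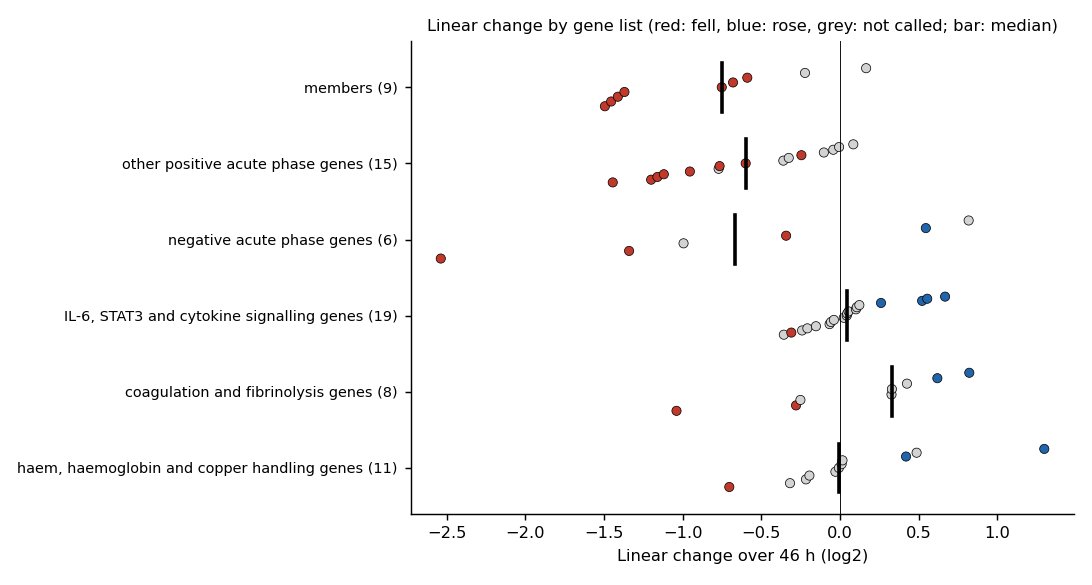
Linear change over 46 h in log2 for each measured member gene and each measured gene of the further lists, 1 row of points per list, with called falls in red, called rises in blue, uncalled genes in grey and a bar at each median. The other positive acute phase genes have 8 called falls and 0 called rises, and the cytokine signalling genes have 4 called rises and 1 called fall. Of all genes 16.4% were called as falling and 26.3% as rising.

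Markers of cell types were set beside these changes. Of the 5 measured hepatocyte markers, each read from its brightest probe set, 3 fell over the 46 h (16.4% of all genes). These were Alb, Ttr and Apoa1, also counted among the negative acute phase genes. After quantile normalization or centring 4 fell, and without 44 to 58 h 0 fell, against 21.9%, 21.3% and 16.1% of all probe sets. As deposited, Hnf4a and Apob were not called, but other probe sets of both were called lower. Those of Hnf4a gave −0.82, −0.44 and −0.48 (adjusted p = 0.000109, 0.0028 and 0.0126), and that of Apob −1.78 (adjusted p = 0.000841). At 44-50 h 3 of the 5 markers were lower than at 36-42 h (12.7% of all genes). Alb fell by 0.34 ± 0.13 (adjusted p = 0.0365). Of the 4 bile duct markers 1 fell, Epcam by 1.29 ± 0.25 (adjusted p = 0.000267). In the contrast of 44-50 h with 36-42 h, Krt19 was lower by 0.26 ± 0.07 (adjusted p = 0.00435). Of the 3 measured macrophage markers 0 were called in either test, with a linear change of 1.34 ± 0.55 for Cd68 (adjusted p = 0.0524). Cd68 was called higher without 44 to 58 h (3.86 when scaled to 46 h, adjusted p = 9.10e-07), and Csf1r lower after quantile normalization (−0.30, adjusted p = 0.0356). The Cd68 values themselves ranged only from 4.31 to 7.37. Of the 2 measured neutrophil markers S100a8 fell by 1.70 ± 0.28 (adjusted p = 4.02e-05), and S100a9 gave −1.24 ± 0.57 (adjusted p = 0.0826). S100a9 was higher at 44-50 h than at 36-42 h by 0.63 ± 0.19 (adjusted p = 0.0142), and without 44 to 58 h it fell by 4.54 (adjusted p = 6.96e-08). Mpo and Elane lay at 2.17 on every array. The part of these marker changes in the members' falls was not tested.

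The profiles most like each member over the 24 arrays, among 9816 other genes with 1 probe set each, are given as a description, since the arrays and their drift are shared. They were Pid1 (Pearson r = 0.943) and Glod5 (0.917) for Fga, Igf2 (0.930) and Glod5 (0.925) for Fgb, and Glod5 (0.833) and Fkbp2 (0.793) for Fgg. Glod5 thus stood among the nearest 2 genes for all 3 fibrinogen chains. Hpx was followed by the proteasome subunit gene Psmb10 (0.970) and Akr1c19 (0.967), Hp by P4ha2 (0.939) and Selenbp1 (0.917), and Cp by the catalase gene Cat (0.912) and the glycogen branching enzyme gene Gbe1 (0.911). For Saa3 they were Gsta2 (0.890) and Reg3b (0.884), for Lcn2 the translation genes Tpt1 (0.913) and Eef1a1 (0.901), and for Stat3 Sema4g (0.844) and Eml4 (0.840).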

How the data were processed

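RNA of 24 samples of one mouse hepatocyte line, 1 per time point, was measured on single-colour Affymetrix arrays. The authors deposited log2 values, 1 for each probe set and array, that GCRMA had computed according to the submitters' processing notes. Its settings are not given in the sources used here, and the log2 scale was read from the range of the values. GCRMA normalizes the arrays together, so a shift shared by most transcripts may be removed. Platform annotation gave 1 symbol to 34958 of 45101 probe sets and several to 932, which were not named. The 64 control probe sets were left out, and 18526 probe sets with log2 of at least 5 on at least 6 arrays were kept.

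Models were fitted with limma 3.58.1 in R 4.3.3 on all 24 arrays and a variance prior that follows intensity. The first held time as a linear term over 46 h with a 24 h cosine and sine. The second held 6 blocks of 8 h, compared with the block before. P-values were adjusted by Benjamini-Hochberg over all 18526 in each test, with a threshold of 0.05. Arrays of a block are neighbouring times and no replicates, and precision is limited by how many arrays there were. The fits were tested on simulated data. A gene was represented by its brightest probe set. Named were all member probe sets, from each further list the 3 genes of smallest p in the linear test and the 2 in the contrast of 44-50 h with 36-42 h, and the 2 genes of most similar profile to each member. Il6, Il6ra, Il6st, Socs3, F2, Plg, Lrp1, Cd163, Hbp1 and genes below the filter were named beside this rule. The members, the lists and the tests were chosen with earlier results of these data known. Settings varied were the scaling, the filter, the variance prior, the drift and harmonic terms, windows of arrays and each array in turn. Promoter windows came from RefSeq (GRCm38.p6). Protein sequences, and promoters of Hp and Orm1, were not used here.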

Additional observations from a re-analysis of the deposited data

How the results depend on the processing

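Of the 16 member probe sets, 13 were called for linear change as reported, 12 to 15 under the other scalings, filters, variance prior, harmonic and without 12 to 18 h, and 13 to 15 with single arrays left out. The count was 7 without 44 to 58 h and 7 with a step term at 44 h. Without 44 to 58 h, on the scale of 46 h, 5 of the 7 fell (Fga −1.79, Fgb −1.61, Fgg −2.15, Hpx −1.32, Saa3 −0.63) and 2 rose (Hp 0.62, adjusted p = 0.0382, against −0.75 as reported; Lcn2 0.54, adjusted p = 0.000193), against 2987 lower and 2657 higher of all 18526. The Cp probe sets 1417495_x_at, 1417494_a_at, 1417496_at and 1455393_at then gave 0.055, 0.14, 0.071 and 0.37, and with the step term 0.0061, 0.092, 0.018 and 0.29, none of them called, and Hp gave 0.52 with the step term. Cp 1448735_at stayed negative, at −0.58 without 44 to 58 h (adjusted p = 0.0572) and −0.60 with the step term (adjusted p = 0.0322). Those fits leave out the late arrays or give them a term of their own, and the reason for the sign changes was not tested. Leaving out the 58 h array ended the call of Hp (−0.61, adjusted p = 0.0597), as did dropping the filter (adjusted p = 0.0511).

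The rhythm count was 0 in every other setting and array omission but 3 without 12 to 18 h, and the cause was not tested. The contrast of 44-50 h with 36-42 h called 9 members, between 6 and 12 in the other settings (6 with the 24 h harmonic added, 12 after centring), and 7 to 10 with single arrays left out. Hpx was not called there with the harmonic added (−0.46, adjusted p = 0.0504), nor were Cp 1448734_at (−0.29, adjusted p = 0.0952), Cp 1417497_at (−0.22, adjusted p = 0.378) and Stat3 1426587_a_at (−0.21, adjusted p = 0.201). Cp 1417497_at lost its call in that contrast without 40, 46, 48 or 50 h. Lcn2, not called there as reported, was called lower without 36 h (−0.18, adjusted p = 0.0108), after centring and with the harmonic. Without 42 h its difference was smallest, at −0.068. The contrast of 20-26 h with 12-18 h called 0 to 2 with single arrays left out, and the other 3 contrasts 0 in every setting. A sign change between values of which neither was called was not counted as a reversal. No paired analysis was possible because each time point had 1 array and the labels give no replicate numbers. Signal limits Fgg, near log2 5, and the 4 probe sets below it.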
